A study of Mus musculus with 23 samples.

Results

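Subdural CNS-associated macrophages (sdCAMs), the macrophages of the perivascular space and the leptomeninges, were compared with microglia, the macrophages of the brain parenchyma, 1 day after ischemic stroke in mice that had been treated with BLZ945. The members were chosen by label: the 5 tdT- sdCAM libraries and the 5 microglia libraries of the BLZ945 mice, 10 of the 23 libraries of the series. All mice carried Ccr2creERT2/+ R26tdT/tdT, a tamoxifen-inducible Cre recombinase at Ccr2, the monocyte chemokine receptor gene, with a tdTomato reporter. They received BLZ945, an inhibitor of the receptor CSF1R, on 7 days at 200 mg/kg, and tamoxifen at 2 mg per injection on the last gavage day and again in the days after it, so that cells with active Ccr2 at that time were marked. Ischemic stroke was induced 8 weeks after the last gavage by placing thrombin in a brain artery, the MCA, and coronal brain slices without choroid plexus were taken 1 day later. Microglia were sorted as CD45int CD11b+ CD206- cells and tdT- sdCAMs as CD45int CD11b+ CD206int-high cells without tdTomato, and by the study's methods CAMs were also gated as Ly6C-, Ly6G- and CD11c-, with microglia as their CD206- counterparts. The same sorts from 5 CTL mice, which had the same alleles, vehicle in place of BLZ945 by the study's methods, the same tamoxifen and the same stroke, entered the model and served as a second measurement of the population difference. No uninjured mouse is part of the comparison, so values describe cells after stroke, and no age was given in the labels.

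The pools were named F1, F2, F3, M1 and M2, and each gave 1 tdT- sdCAM and 1 microglia library. The study's methods give 2 animals per pool, while the library names give 2 for 4 pools and 1 for F2. Values below are read counts scaled to TMM-corrected library size (CPM) and always follow the order F1, F2, F3, M1, M2. A fold change is the log2 ratio of tdT- sdCAMs to microglia with its standard error (SE), and a gene was called higher or lower at an adjusted p under 0.05 in edgeR's quasi-likelihood test. A tdT- cell lacked the mark of Ccr2 activity at the time of tamoxifen, which limits the group as a model of any one origin. In bulk libraries, fewer cells expressing a gene and less RNA per cell cannot be told apart.

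As background, both populations depend on signals through CSF1R, but they sit in different places. Microglia are held in their state by TGF-beta from the parenchyma and by the transcription factor SALL1, and survey the tissue through purine receptors such as P2RY12. Macrophages at the brain borders sit along vessels and in the meninges, where they take up material from blood and cerebrospinal fluid with scavenger receptors and lectins, and where a share of them presents antigen on MHC class II.

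The 10 libraries held 9433960 to 11796081 counts, with 12733 to 14460 genes detected in tdT- sdCAMs and 13779 to 16207 in microglia, and a count of 0 in 1 library allowed up to 0.252 to 0.337 CPM. The sort gene Mrc1, which encodes CD206, was at 2804 to 3330 CPM against 3.27 to 6.11 CPM in microglia, as the gate sets. The animal number in the name of pool F2 also stands in that of pool M1, but Xist was at 114 and 193 CPM in both libraries of F2 and at 0 in both of M1, so both pools were also left out together as an alternative. Markers of other cells were not alike in the groups. The 6 neuron markers were all called higher in tdT- sdCAMs, with summed levels of 61.3 to 153 CPM against 6.96 to 18.3 CPM, and 4 of 5 tested astrocyte markers were higher, 55.6 to 199 against 5.86 to 14.4 CPM. Fibroblast markers summed to 15.6 to 63.7 against 0.170 to 2.41 CPM, with 4 of 5 tested higher and Igf2 at most 0.325 CPM. Mural cell markers summed to 24.96 to 107 against 10.9 to 15.9 CPM, with 1 of 5 tested higher and 1 lower. Monocyte markers summed to 263.4, 31.6, 19.2, 108 and 11.1 CPM in tdT- sdCAMs and 6.62 to 17.3 CPM in microglia, with 4 of 7 tested called higher and Ly6c2 at 0 in 4 of the 5 tdT- sdCAM libraries. Ccr2 is one of these markers and made up 123 CPM of the sum in tdT- F1. Dendritic cell markers summed to 156.5 to 253.7 CPM in microglia, 33.7 to 63.6 CPM in 4 tdT- sdCAM libraries and 208 CPM in tdT- F1. Of 3 tested, 1 was higher in tdT- sdCAMs, 1 lower and 1 not called, with a median log2 fold change of 2.27. Ccl22 was at 75.6 CPM in tdT- F1 and at most 0.109 CPM in the others. Choroid plexus markers reached 157 and 558 CPM in the libraries of pool F3, and erythrocyte markers 316 CPM in tdT- F2. Neutrophil markers were at 74.9 CPM in tdT- F1, at 28.9 and 49.7 CPM in the microglia libraries F3 and M1 and at most 3.08 CPM in the others. Platelet markers were at 82.1 CPM in tdT- M2, 2.63 to 18.4 CPM in the other tdT- sdCAM libraries and 20.05 to 26.6 CPM in microglia. The part of these cells in the differences below was not tested. The gene groups were recomputed without tdT- F1, without pool F3 and without pools F2 and M1. Leaving libraries out cannot address markers whose sums were higher in every tdT- sdCAM library.

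**Figure D1:**
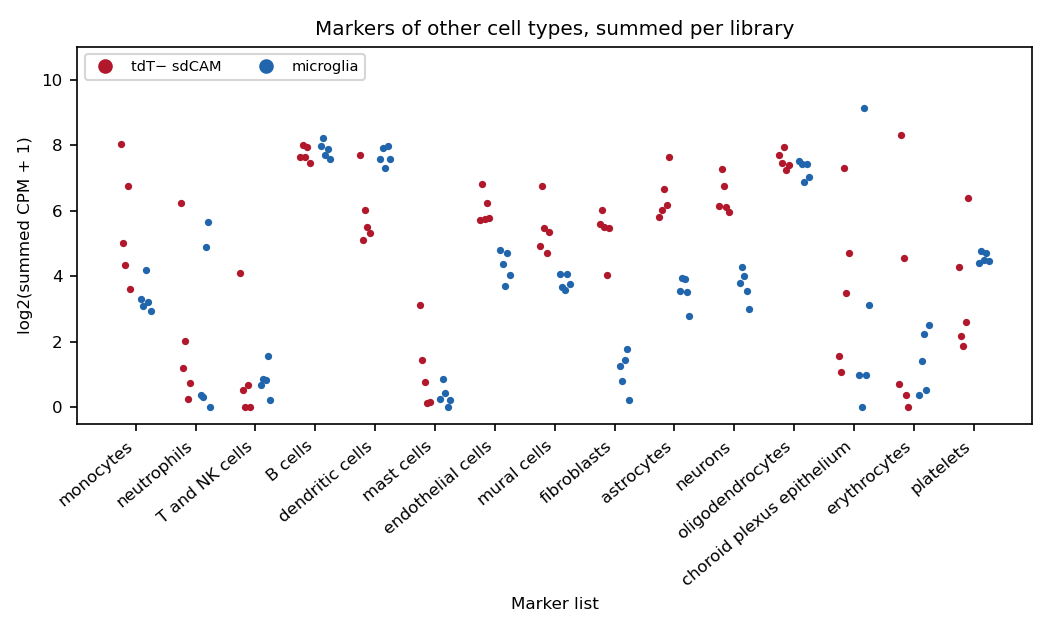
Summed levels of 15 lists of markers of other cell types, as log2(CPM + 1), with 1 point per library (red, tdT- sdCAMs; blue, microglia). The sums of neuron, astrocyte, fibroblast, endothelial and mural cell markers are higher in all 5 tdT- sdCAM libraries, and single libraries stand out for monocyte, neutrophil, choroid plexus, erythrocyte and platelet markers. Of 7 tested endothelial markers, 2 were called higher, 2 lower and 3 not called. Dendritic cell markers are at 156.5 to 253.7 CPM in microglia and below that in 4 of 5 tdT- sdCAM libraries.

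The populations differed in 4113 of 12697 genes tested, or 32.4%. Of all genes tested, 18.3% were higher in tdT- sdCAMs (2324 genes) and 14.1% were higher in microglia (1789 genes), and the median log2 fold change was -0.02. In 22.0% of genes tested the 5 libraries of each group did not overlap, 10.6% with tdT- sdCAMs higher and 11.4% with microglia higher. A difference of at least 2 on the log2 scale was called for 969 genes in the higher and 624 in the lower direction. These shares are the background against which the counts in 25 lists of genes are read. With the model confined to the 10 BLZ945 libraries, 2738 genes were called, and 2560 with the pool as a block as well. With the block in the model of all 20 libraries, 2033 genes were higher and 2054 lower, so the larger share of higher genes was not kept there. It was kept with the block in the 10 BLZ945 libraries alone, at 1477 higher and 1083 lower. The median log2 fold change over all genes was -0.177 and -0.171 in these fits.

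**Figure D2:**
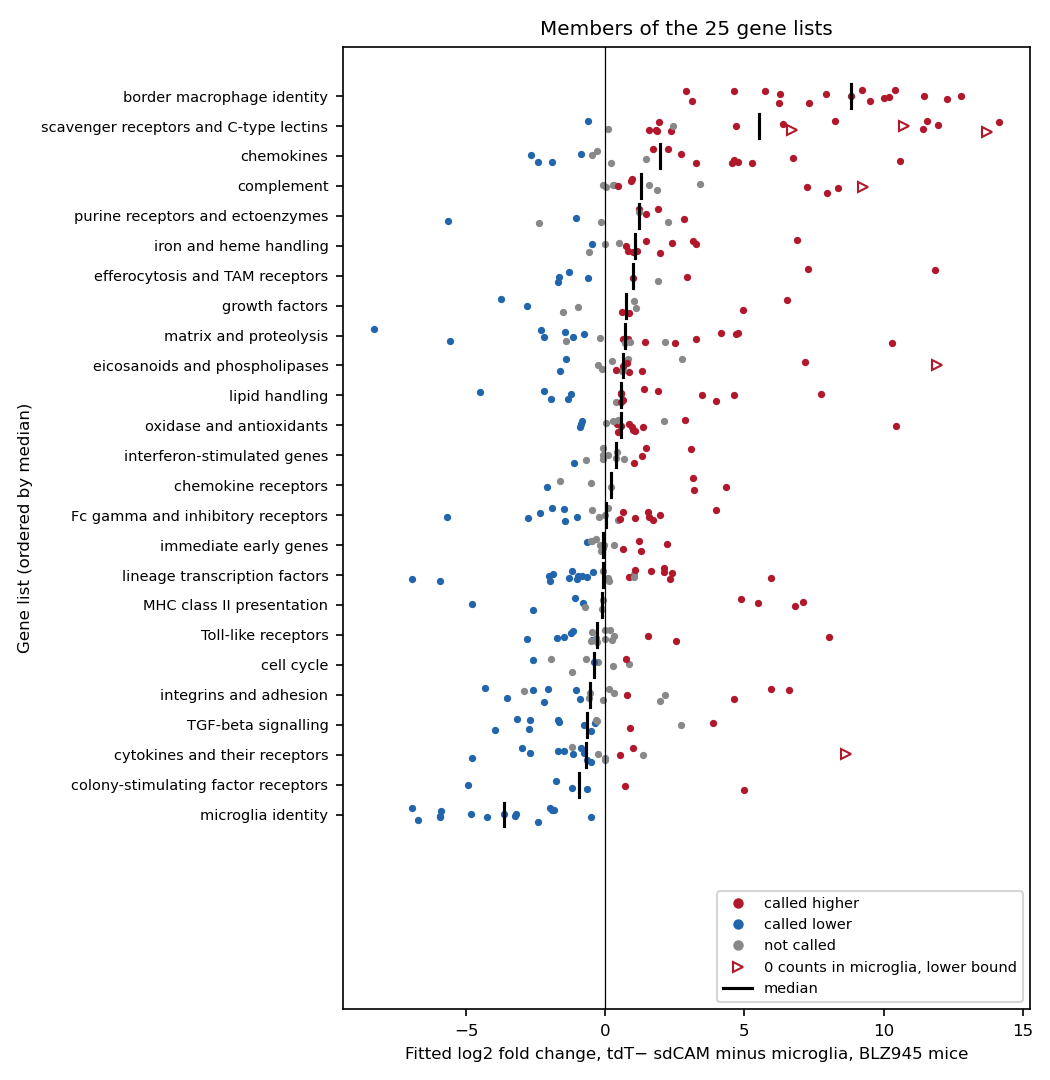
Fitted log2 fold changes (tdT- sdCAMs minus microglia) of the tested members of 25 gene lists, 1 point per gene, with the list median as a bar. The microglia identity list lies to the left of 0 with a median of -3.63, the border macrophage list to the right with 8.81, and open triangles give the lower bound for genes with 0 counts in microglia.

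All 15 tested genes of the microglia identity list were lower in tdT- sdCAMs, with a median log2 fold change of -3.63, and in none did the libraries overlap. Sall1, the transcription factor of microglia, was at 0.433, 0.984, 5.62, 0.688 and 0.450 CPM in the tdT- sdCAM libraries and 176, 259, 177, 266 and 180 CPM in the microglia libraries. Its level in tdT- F3 stood above the other tdT- sdCAM libraries and below every microglia library (log2 fold change -6.94, SE 0.72, adjusted p = 1.30e-07, and -8.35 without the tdT- sdCAM library F3). Tmem119, a microglial surface protein, was at 23.6, 32.8, 21.6, 30.5 and 38.4 CPM in the tdT- sdCAM libraries and 3104, 3435, 2651, 3378 and 2975 CPM in the microglia libraries. No library came near those of the other group (log2 fold change -6.73, SE 0.41, adjusted p = 3.60e-11). The secreted glycoprotein gene Sparc was at 33.1 to 110 CPM against 3104 to 4373 CPM (log2 fold change -5.94, SE 0.33, adjusted p = 9.45e-12), and Sall3, the paralog of Sall1, at 0 to 3.47 CPM against 68.6 to 97.3 CPM (log2 fold change -5.93, SE 0.58, adjusted p = 4.86e-08, and -6.66 without the tdT- sdCAM library F1). P2ry12, the purine receptor that guides microglial processes, was at 400, 372, 284, 372 and 324 CPM in the tdT- sdCAM libraries and 4778, 5025, 3229, 4901 and 3794 CPM in the microglia libraries. It remained well above the floor in every tdT- sdCAM library (log2 fold change -3.63, SE 0.17, adjusted p = 7.74e-13). Cx3cr1, the fractalkine receptor, was lower by a similar amount (log2 fold change -3.22, adjusted p = 5.24e-10). The smallest difference in the list was that of Csf1r, the target of BLZ945, at 2891, 2768, 3068, 4085 and 3223 CPM in the tdT- sdCAM libraries and 4262, 4579, 4181, 5236 and 4744 CPM in the microglia libraries. The tdT- sdCAM libraries were all below the microglia libraries, by a margin under 1 on the log2 scale (log2 fold change -0.52, SE 0.13, adjusted p = 0.00295).

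All 17 genes of the border macrophage list were higher in tdT- sdCAMs in every pool, with a median log2 fold change of 8.81. The list includes the sort gene Mrc1, which is no finding. Lyve1, a hyaluronan receptor, was at 2163, 2697, 2751, 2872 and 3404 CPM in the tdT- sdCAM libraries and 0.100, 0, 0.0856, 0.0891 and 1.61 CPM in the microglia libraries. Microglia held almost none of it (log2 fold change 12.77, SE 0.66, adjusted p = 2.80e-12, and 15.11 without the microglia library M2). Cd163, the hemoglobin-haptoglobin receptor, was at 1332, 822, 1410, 2034 and 1763 CPM in the tdT- sdCAM libraries and 0.702, 0, 0, 0 and 0.764 CPM in the microglia libraries. It was at 0 in 3 microglia libraries (log2 fold change 12.28, SE 0.79, adjusted p = 8.80e-11, and 13.09 without the microglia library M2). Cbr2, a carbonyl reductase, was at 1557, 2819, 1791, 2094 and 1771 CPM in the tdT- sdCAM libraries and 0, 0.671, 1.11, 0.356 and 1.27 CPM in the microglia libraries. The levels in tdT- sdCAMs lay within a narrow range (log2 fold change 11.46, SE 0.47, adjusted p = 9.70e-14). Colec12, a collectin scavenger receptor, was at 160 to 369 CPM against 0 to 0.902 CPM (log2 fold change 10.41, SE 0.59, adjusted p = 9.45e-12, and with every microglia library but F1 at 0), and F13a1, the coagulation factor XIII A chain, at 1948 to 3975 CPM against 0.534 to 6.62 CPM (log2 fold change 10.03, SE 0.62, adjusted p = 3.64e-11). Folr2, a folate receptor, and Pf4, a platelet-type chemokine, were also separate (log2 fold change 9.53, adjusted p = 9.70e-14 and log2 fold change 8.81, adjusted p = 1.22e-11, and 9.46 without the microglia library F3). Genes that microglia also held differed less. Apoe, the apolipoprotein, was at 35345, 61464, 52047, 51393 and 39036 CPM in the tdT- sdCAM libraries and 1237, 753, 559, 249 and 349 CPM in the microglia libraries. It was the most abundant transcript of the list in tdT- sdCAMs by CPM, which is not corrected for gene length (log2 fold change 6.25, SE 0.47, adjusted p = 8.95e-10). Lyz2, lysozyme, was at 8789 to 13744 CPM against 313 to 547 CPM (log2 fold change 4.62, adjusted p = 1.48e-13), and Stab1, a scavenger receptor for matrix and lipoproteins, at 684 to 1229 CPM against 105 to 151 CPM (log2 fold change 2.90, adjusted p = 1.30e-11).

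**Figure D3:**
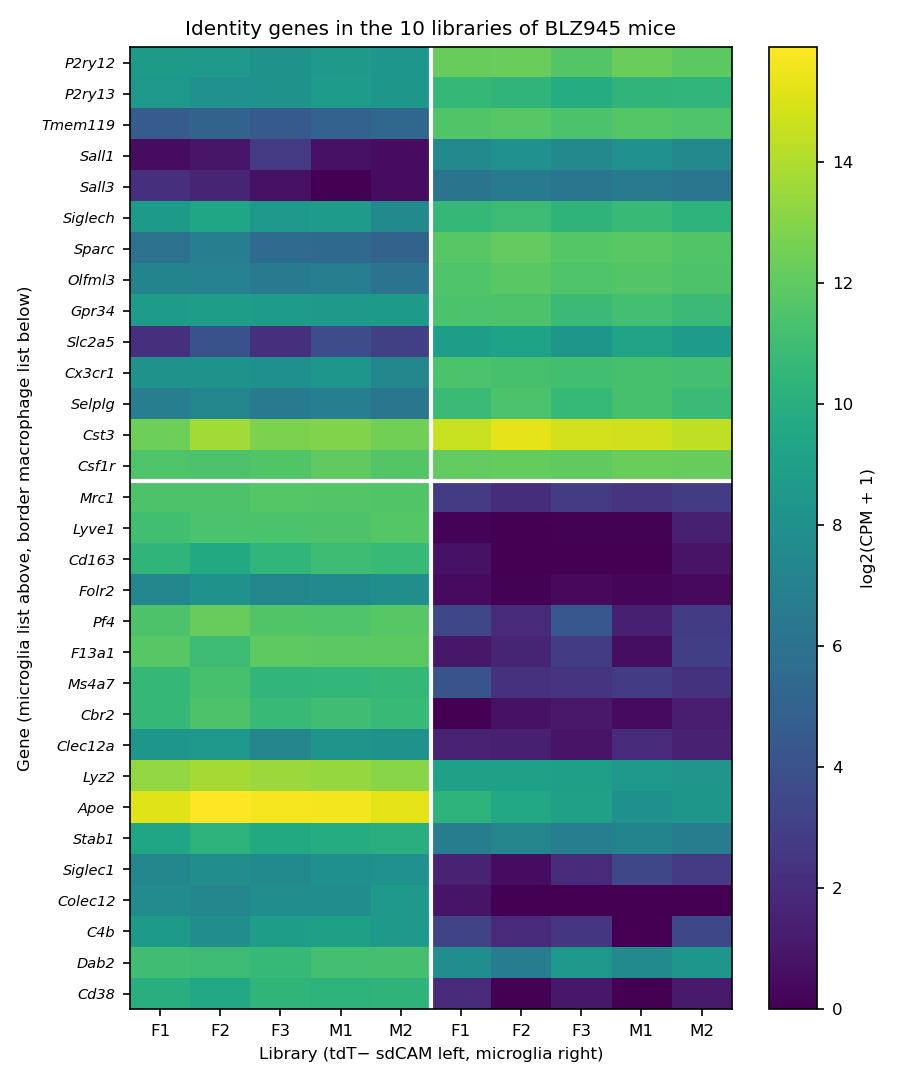
Levels of 14 microglia and 17 border macrophage identity genes in the 10 libraries, as log2(CPM + 1), tdT- sdCAMs left and microglia right. Each block of genes is high in its own population in all 5 pools. Within a population single libraries stand apart for some genes, such as Sall1 in tdT- F3, and Pf4 and Apoe vary among the microglia libraries.

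Of 18 tested scavenger receptors and C-type lectins, 15 were higher in tdT- sdCAMs, 1 was lower and 2 were not called, with a median log2 fold change of 5.54. Clec10a, a lectin for galactose, was at 459, 910, 660, 756 and 840 CPM in the tdT- sdCAM libraries and 0, 0, 0, 0 and 0 CPM in the microglia libraries. With no count in any microglia library it was at least 13622-fold higher in tdT- sdCAMs, taking 3 counts over the 5 microglia libraries as the floor (adjusted p = 5.78e-11). Cd209f, of the DC-SIGN family of pathogen-binding lectins, was at 408, 619, 331, 536 and 709 CPM in the tdT- sdCAM libraries and 0, 0, 0, 0.0891 and 0 CPM in the microglia libraries. A single microglia library held a trace of it (a ratio of pooled counts per pooled library size of 28988, 95% counting interval 5202 to 1145030). Cd209a was at 121, 47.4, 108, 142 and 19.3 CPM in the tdT- sdCAM libraries and 0, 0, 0, 0 and 0 CPM in the microglia libraries, and was at least 1693-fold higher (adjusted p = 2.55e-08). Cd209b was at 134 to 238 CPM against 0 to 0.170 CPM (a ratio of pooled counts per pooled library size of 5214, 95% counting interval 1443 to 43058). The Cd209 genes are near copies of each other, and how reads that fit several of them were counted is not stated, so the split among them is uncertain. Cd36, a receptor for lipids and oxidised lipoproteins, was at 460, 444, 346, 465 and 611 CPM in the tdT- sdCAM libraries and 78.9, 31.2, 165, 127 and 203 CPM in the microglia libraries. The groups did not overlap, but microglia held it as well (log2 fold change 1.94, SE 0.43, adjusted p = 0.00144). Msr1, scavenger receptor A, differed less (log2 fold change 1.59, adjusted p = 1.34e-04). Scarb2, a lysosomal membrane protein, was the member that was lower (log2 fold change -0.64, adjusted p = 0.00379), and Scarb1, the HDL receptor, was not called, at 25.8 to 39.9 CPM against 26.5 to 36.4 CPM.

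The MHC class II list split in 2 directions, with 4 genes higher in tdT- sdCAMs, 4 lower and 3 not called of 11 tested (median -0.12, which was -0.39 without tdT- F1 and 0.01 without pools F2 and M1). The genes of the chains that carry peptide to the surface were higher. H2-Aa, the class II alpha chain, was at 1722, 897, 1402, 799 and 421 CPM in the tdT- sdCAM libraries and 14.1, 7.80, 8.64, 3.21 and 4.16 CPM in the microglia libraries. Every tdT- sdCAM library was above every microglia library, with a spread among the pools wider than in most genes above (log2 fold change 7.12, SE 0.50, adjusted p = 3.58e-10). H2-Ab1 and H2-Eb1, the beta chains, were at 667 to 2467 CPM against 23.7 to 42.3 CPM (log2 fold change 5.48, SE 0.38, adjusted p = 3.18e-10) and at 293 to 1157 CPM against 4.10 to 8.92 CPM (log2 fold change 6.82, SE 0.39, adjusted p = 1.32e-11). Cd74, the invariant chain that escorts class II molecules, was at 6312, 4311, 5353, 3259 and 1537 CPM in the tdT- sdCAM libraries and 142, 116, 197, 98.3 and 145 CPM in the microglia libraries. The tdT- sdCAM libraries ranked as they did for H2-Aa (log2 fold change 4.89, SE 0.32, adjusted p = 1.23e-10). The highest library was tdT- F1, which also held 75.6 CPM of Ccl22 and the most monocyte markers of all 10 libraries, and whose summed dendritic cell markers were the highest among the tdT- sdCAM libraries and within the range of microglia. Their part in the class II levels was not tested, and without tdT- F1 the log2 fold change of H2-Aa was 6.86 and that of Cd74 4.69.

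The genes that work on peptide loading did not follow. H2-Oa, the alpha chain of H2-O, which restrains loading, was at 2.92, 0, 1.45, 0 and 0 CPM in the tdT- sdCAM libraries and 23.8, 31.3, 22.0, 23.7 and 21.1 CPM in the microglia libraries. It was at 0 in 3 tdT- sdCAM libraries, and the groups did not overlap (log2 fold change -4.78, SE 0.96, adjusted p = 5.52e-04, and -5.95 without the tdT- sdCAM library F1). H2-Ob, the beta chain of H2-O, was at 5.63, 9.62, 12.4, 0 and 13.2 CPM in the tdT- sdCAM libraries and 49.3, 69.7, 39.4, 55.6 and 31.5 CPM in the microglia libraries. The groups did not overlap (log2 fold change -2.59, SE 0.73, adjusted p = 0.00914), and the call was lost with the 10 BLZ945 libraries alone and the pool as a block, at -2.91, and with pools F2 and M1 left out, where the log2 fold change was -1.95. H2-DMa, a chain of the loading catalyst H2-DM, was at 205, 234, 279, 144 and 74.9 CPM in the tdT- sdCAM libraries and 303, 420, 332, 305 and 260 CPM in the microglia libraries. It was lower in all 5 pools while the groups overlapped (log2 fold change -0.79, SE 0.26, adjusted p = 0.0220). That call was lost without the tdT- sdCAM library M1, at -0.71, and without the microglia library F2, at -0.68. H2-DMb1, the other chain, was not called, at 63.1 to 233 CPM against 116 to 175 CPM. Ctss, the protease that trims the invariant chain, was lower (log2 fold change -1.07, adjusted p = 2.52e-07), and Ifi30, a lysosomal thiol reductase, was not called (log2 fold change -0.12, adjusted p = 0.540). With pools F2 and M1 left out, 2 members of the list rather than 4 were called lower. Class II genes share sequence among themselves, and how reads with several matches were counted is not stated.

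The promoters of class II genes carry a shared module, in which a Y box bound by NF-Y lies near an X box bound by the RFX complex. The 250 bases before the start of 4 class II genes of opposite direction are printed to show what they share, 2 that were higher (H2-Aa, H2-Eb1) and 2 that were lower (H2-Oa, H2-Ob). They are RefSeq sequences of build GRCm38.p6, 5′ to 3′ on the strand of the gene, with capitals for the letters ATTGG of the Y box on either strand and for matches to a degenerate X-box motif, also on either strand.
H2-Aa, chr17:34287824-34288073, minus strand: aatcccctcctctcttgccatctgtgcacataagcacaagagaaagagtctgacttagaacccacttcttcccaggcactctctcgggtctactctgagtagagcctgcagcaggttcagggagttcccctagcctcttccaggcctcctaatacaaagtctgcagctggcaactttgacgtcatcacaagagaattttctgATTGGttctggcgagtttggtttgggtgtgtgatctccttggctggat
H2-Eb1, chr17:34305617-34305866, plus strand: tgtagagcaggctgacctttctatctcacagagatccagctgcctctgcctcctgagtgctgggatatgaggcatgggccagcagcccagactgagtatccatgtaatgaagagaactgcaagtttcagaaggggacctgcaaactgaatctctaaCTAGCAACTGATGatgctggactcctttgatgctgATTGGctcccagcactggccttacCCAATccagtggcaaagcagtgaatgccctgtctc
H2-Oa, chr17:34092129-34092378, plus strand: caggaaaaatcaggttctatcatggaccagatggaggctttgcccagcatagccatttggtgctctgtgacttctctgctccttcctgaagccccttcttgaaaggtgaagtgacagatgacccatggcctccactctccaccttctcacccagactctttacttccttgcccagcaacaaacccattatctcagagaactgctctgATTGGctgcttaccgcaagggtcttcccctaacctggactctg
H2-Ob, chr17:34238655-34238904, plus strand: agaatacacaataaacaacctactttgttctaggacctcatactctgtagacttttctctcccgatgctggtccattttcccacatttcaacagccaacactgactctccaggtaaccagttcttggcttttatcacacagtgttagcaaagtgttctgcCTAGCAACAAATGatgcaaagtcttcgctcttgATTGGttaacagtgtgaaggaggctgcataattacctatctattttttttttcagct
ATTGG stood in all 4, between 35 and 59 bases before the start, and the X-box motif in H2-Eb1 at 94 and in H2-Ob at 90 bases before it. Among the 4 printed, each motif was thus found in higher and in lower genes, and the other genes of the list were not compared by direction. Over the list, 8 of 10 genes with a promoter in the table held ATTGG, against 37.5% of 27025 genes, and 4 of 10 held the X-box motif, against 0.688%. The 2 motifs do not overlap in these windows. A match describes these letters only, and none in H2-Aa or H2-Oa says no more than that this spelling is not in the window.

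**Figure D4:**
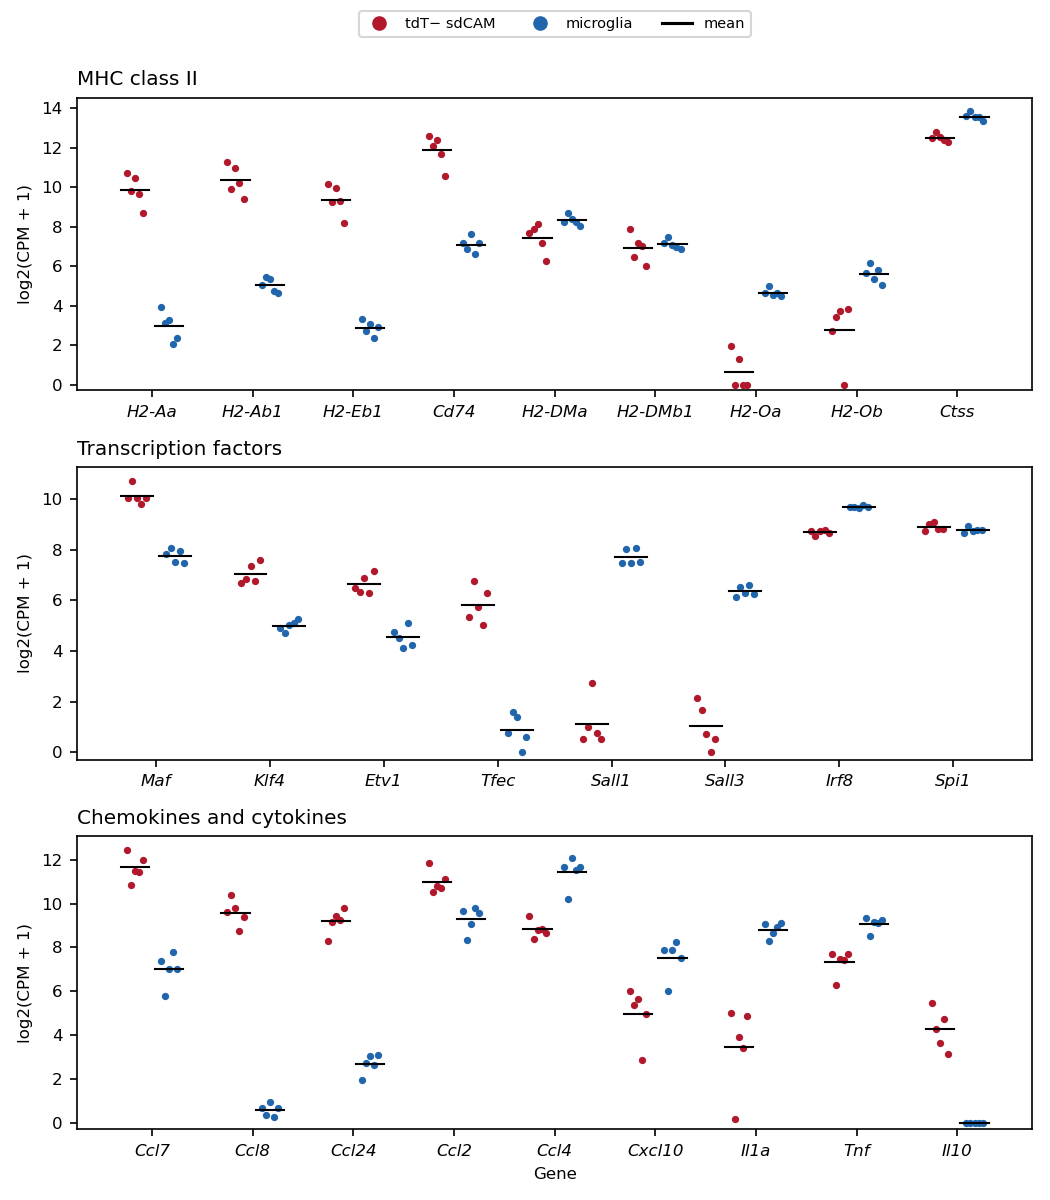
Levels of class II genes, transcription factors, and chemokines and cytokines as log2(CPM + 1), 1 point per library (red, tdT- sdCAMs; blue, microglia) with the group mean as a bar. H2-Aa, H2-Ab1, H2-Eb1 and Cd74 are higher in tdT- sdCAMs while H2-Oa, H2-Ob and Ctss are lower, Maf is higher in tdT- sdCAMs and Irf8 lower, and Ccl7, Ccl8, Ccl24, Ccl2 and Il10 lie opposite to Ccl4, Cxcl10, Il1a and Tnf.

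Of 25 tested transcription factors of macrophage lineages, 8 were higher, 12 lower and 5 not called, with a median log2 fold change of -0.08 that moved to -0.43 without tdT- F1 and with the pool as a block. Maf, which drives tissue macrophage programs, was at 1044, 1703, 1048, 894 and 1053 CPM in the tdT- sdCAM libraries and 229, 265, 181, 246 and 177 CPM in the microglia libraries. The tdT- F2 library stood above the rest (log2 fold change 2.39, SE 0.21, adjusted p = 8.89e-09). Tfec, a macrophage member of the MiT family, was at 31.2 to 109 CPM against 0 to 2.01 CPM (log2 fold change 5.96, SE 0.72, adjusted p = 1.18e-06). Klf4, a factor of the monocyte lineage, and Etv1, an ETS factor, were also higher (log2 fold change 2.12, adjusted p = 1.63e-05 and log2 fold change 2.12, adjusted p = 2.96e-07). Id2, an inhibitor of helix-loop-helix factors, and Bhlhe41 were lower (log2 fold change -2.001, adjusted p = 3.84e-04 and log2 fold change -1.89, adjusted p = 1.47e-08). Irf8, required for microglia and monocyte fates, was at 424, 375, 422, 436 and 404 CPM in the tdT- sdCAM libraries and 821, 820, 796, 861 and 826 CPM in the microglia libraries. The libraries within each population were close together, and the tdT- sdCAM mean was 49.99% of that of microglia (SE 0.11 on the log2 scale, adjusted p = 3.85e-07). Spi1, which encodes PU.1, the factor shared by all macrophages, was at 428 to 550 CPM against 401 to 494 CPM and was not called (log2 fold change 0.12, adjusted p = 0.381).

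TGF-beta signalling genes were mostly lower in tdT- sdCAMs, 9 of 14 tested, with 2 higher, 3 not called and a median of -0.65, and 1 rather than 2 was higher with pools F2 and M1 left out. Tgfbr1, the type I receptor, was at 134, 68.5, 115, 130 and 105 CPM in the tdT- sdCAM libraries and 1030, 991, 1072, 945 and 1001 CPM in the microglia libraries. The populations were far apart and each was tight (log2 fold change -3.19, SE 0.26, adjusted p = 3.78e-09). Smad7, a feedback inhibitor, was at 11.3, 5.25, 5.17, 9.04 and 0 CPM in the tdT- sdCAM libraries and 90.2, 86.8, 106, 87.3 and 106 CPM in the microglia libraries. It was at 0 in tdT- M2 (log2 fold change -3.95, SE 0.54, adjusted p = 7.48e-06). Skil and Ski, corepressors of SMAD proteins, were lower (log2 fold change -2.69, adjusted p = 9.60e-06 and log2 fold change -1.68, adjusted p = 2.88e-08), as was Eng, the coreceptor endoglin, at 0 to 7.26 CPM against 23.1 to 41.9 CPM (log2 fold change -2.75, SE 0.54, adjusted p = 4.89e-04). Itgav, the integrin chain that helps release TGF-beta, was lower too (log2 fold change -1.71, adjusted p = 1.14e-04). Nrros, which tethers latent TGF-beta to macrophages, was higher instead, at 519 to 780 CPM against 344 to 372 CPM (log2 fold change 0.87, SE 0.12, adjusted p = 4.86e-06).

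All 6 tested members of the colony-stimulating factor list were called, 2 higher and 4 lower. Csf1, the CSF1R ligand, was at 7.58, 0, 9.89, 0 and 3.37 CPM in the tdT- sdCAM libraries and 106, 41.4, 145, 117 and 234 CPM in the microglia libraries. It was below 10 CPM in every tdT- sdCAM library and above 40 CPM in every microglia library (log2 fold change -4.93, SE 0.86, adjusted p = 1.23e-04, and -5.57 without the tdT- sdCAM library F3). Csf2ra, the GM-CSF receptor alpha chain, was at 162 to 214 CPM against 88.3 to 129 CPM (log2 fold change 0.70, SE 0.14, adjusted p = 5.52e-04). Csf2rb2, the beta chain for interleukin-3 and a near copy of Csf2rb, was lower (log2 fold change -1.21, adjusted p = 0.00381), and so was Csf3r, the G-CSF receptor, at 44.2 to 81.1 CPM against 174 to 236 CPM (log2 fold change -1.77, SE 0.17, adjusted p = 3.45e-08). Il34, the second CSF1R ligand, was higher at a low level, at 0 to 4.72 CPM against 0 to 0.336 CPM, where the groups overlapped (log2 fold change 4.97, adjusted p = 0.00835, and with every microglia library but F2 at 0).

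Chemokines were higher in tdT- sdCAMs in 10 of 18 tested, lower in 4 and not called in 4 (median 1.98). Ccl7, a ligand of CCR2, was at 5574, 1862, 2892, 2744 and 4088 CPM in the tdT- sdCAM libraries and 164, 53.9, 130, 222 and 129 CPM in the microglia libraries. All pools were above all microglia libraries (log2 fold change 4.62, SE 0.38, adjusted p = 4.70e-09). Ccl8, another CC chemokine, was at 775, 1349, 874, 427 and 667 CPM in the tdT- sdCAM libraries and 0.601, 0.252, 0.941, 0.178 and 0.594 CPM in the microglia libraries. It was below 1 CPM in every microglia library (log2 fold change 10.61, SE 0.56, adjusted p = 3.18e-12). Ccl24, an eotaxin, was at 312 to 893 CPM against 2.81 to 7.47 CPM (log2 fold change 6.75, SE 0.38, adjusted p = 9.45e-12), and Cxcl1, a chemokine that draws neutrophils, at 29.2 to 84.9 CPM against 0 to 3.61 CPM (log2 fold change 5.26, SE 0.89, adjusted p = 9.24e-05, and 6.12 without the microglia library F2). Ccl2, the main CCR2 ligand, was abundant in both populations, at 3646, 1462, 1770, 1656 and 2240 CPM in the tdT- sdCAM libraries and 819, 321, 531, 893 and 747 CPM in the microglia libraries. The lowest tdT- sdCAM library was above the highest microglia library (log2 fold change 1.70, SE 0.30, adjusted p = 1.72e-04). Cxcl2 was higher as well (log2 fold change 2.72, adjusted p = 1.97e-04). Ccl4, a CC chemokine, was at 697, 332, 437, 456 and 405 CPM in the tdT- sdCAM libraries and 3200, 1191, 4254, 2928 and 3238 CPM in the microglia libraries. It was lower in tdT- sdCAMs in all 5 pools (log2 fold change -2.67, SE 0.33, adjusted p = 1.65e-06). Cxcl10, an interferon-induced chemokine, was also lower (log2 fold change -2.42, adjusted p = 6.31e-04). The count of lower chemokines was 2 rather than 4 without pool F3 and also 2 without pools F2 and M1. Several Ccl genes lie in clusters of similar sequence, where counting of shared reads is not stated.

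Of 7 tested chemokine receptors, 3 were higher, 1 lower and 3 not called, and without tdT- F1 2 were lower. Ccr1, a receptor for CCL ligands of macrophages, was at 756, 556, 632, 561 and 587 CPM in the tdT- sdCAM libraries and 97.5, 49.5, 83.6, 34.8 and 77.6 CPM in the microglia libraries. The groups were apart in all pools (log2 fold change 3.17, SE 0.39, adjusted p = 1.90e-06). Cxcr4, the CXCL12 receptor, was at 7.76 to 18.2 CPM against 0.356 to 1.19 CPM (log2 fold change 4.33, adjusted p = 5.22e-06). Ccr2, whose locus drives the Cre here, was at 123, 22.96, 8.98, 26.5 and 0 CPM in the tdT- sdCAM libraries and 2.91, 3.78, 6.84, 3.21 and 3.39 CPM in the microglia libraries. The call rested on tdT- F1 (log2 fold change 3.17, SE 0.87, adjusted p = 0.00763, and 1.85 without the tdT- sdCAM library F1). It was also lost with the pool as a block, at a log2 fold change of 1.91, and with pools F2 and M1 left out, at 3.31.

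In a list of cytokines, their receptors and some inflammatory regulators, 10 of 18 tested genes were lower in tdT- sdCAMs, 3 higher and 5 not called (median -0.71), and 6 were lower without pool F3. Of the 10, 6 encode cytokines or receptors, and the others were Ptgs2, cyclooxygenase 2, Nlrp3, an inflammasome sensor, and Nfkbia and Tnfaip3, inhibitors of NF-kB signalling (-2.71, -0.85, -0.65 and -1.17 on the log2 scale). Nfkbia lost its call in 13 of 24 alternatives, Ptgs2 in 6 of 23, Tnfaip3 in 5 of 24 and Nlrp3 in 2 of 24. Il1a, an alarmin of the interleukin-1 family, was at 30.6, 0.109, 13.97, 9.53 and 28.1 CPM in the tdT- sdCAM libraries and 541, 311, 396, 482 and 553 CPM in the microglia libraries. Every microglia library was above every tdT- sdCAM library (log2 fold change -4.79, SE 0.60, adjusted p = 2.22e-06). Tnf, a central inflammatory cytokine, was at 204, 77.6, 176, 170 and 203 CPM in the tdT- sdCAM libraries and 637, 370, 578, 548 and 599 CPM in the microglia libraries. The tdT- F2 library was the lowest of all (log2 fold change -1.72, SE 0.27, adjusted p = 4.56e-05). Il6 was lower from a lower level, at 0 to 13.1 CPM against 28.1 to 48.5 CPM (log2 fold change -3.01, SE 0.64, adjusted p = 0.00103, and -3.80 without the tdT- sdCAM library F3). Il1b, by contrast, was not called, at 683, 19.1, 191, 257.8 and 11.6 CPM in the tdT- sdCAM libraries and 101, 20.8, 153, 74.9 and 104 CPM in the microglia libraries. Its levels in tdT- sdCAMs spanned both sides of those in microglia, and tdT- F1, the highest, also held the most neutrophil markers, whose part was not tested (log2 fold change 1.36, adjusted p = 0.165). Il10, an anti-inflammatory cytokine, was at 43.1, 18.4, 11.2, 25.8 and 7.87 CPM in the tdT- sdCAM libraries and 0, 0, 0, 0 and 0 CPM in the microglia libraries. It was at least 398-fold higher in tdT- sdCAMs (adjusted p = 6.53e-08), while Il10ra, a chain of its receptor, was lower, at 110 to 247 CPM against 498 to 657 CPM (log2 fold change -1.49, adjusted p = 2.10e-06). Il4ra, a receptor chain for interleukin-4 and interleukin-13, was higher (log2 fold change 0.99, adjusted p = 0.00780), and Tnfrsf1b, a TNF receptor, lower (log2 fold change -0.77, adjusted p = 0.00160).

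None of the 14 tested complement genes was lower, 7 were higher and 7 not called (median 1.27). Cfp, the complement activator properdin, was at 352, 467, 374, 507 and 599 CPM in the tdT- sdCAM libraries and 1.90, 1.76, 3.68, 0.267 and 1.44 CPM in the microglia libraries. It was below 4 CPM in every microglia library (log2 fold change 7.98, SE 0.42, adjusted p = 3.60e-12). C2, a component of the classical pathway, was at 18.4 to 42.1 CPM against 0 to 0.534 CPM (log2 fold change 7.24, SE 0.64, adjusted p = 1.06e-08, and 8.00 without the microglia library M1), and Cd55, an inhibitor of complement on cell surfaces, at 33.5 to 99.1 CPM against 0 to 0.856 CPM (log2 fold change 8.35, SE 0.80, adjusted p = 4.23e-08, and with every microglia library but F3 at 0). Vsig4, a complement receptor of tissue macrophages, was at 23.6, 0.547, 34.7, 62.9 and 39.5 CPM in the tdT- sdCAM libraries and 0, 0, 0, 0 and 0 CPM in the microglia libraries. It was at least 622-fold higher, with tdT- F2 far below the other pools (adjusted p = 2.06e-06). C5ar1, the C5a receptor, was at 1980 to 2474 CPM against 861 to 1327 CPM (log2 fold change 0.96, SE 0.16, adjusted p = 6.55e-05). C1qa, C1qb and C1qc encode the chains of C1q, which starts the classical pathway, and were abundant in both populations. C1qc was called higher (log2 fold change 0.45, adjusted p = 0.0134) but not without pool M1 (0.42, adjusted p = 0.0503). C1qa and C1qb were not called (log2 fold change 0.30, adjusted p = 0.110 and 0.27, adjusted p = 0.226), though C1qa was with the pool as a block, at an adjusted p of 0.0440. The receptor C3ar1 was not called (log2 fold change 0.03, adjusted p = 0.901).

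Of 20 Fc gamma and inhibitory receptors tested, 8 were higher, 7 lower and 5 not called (median 0.04, and 0.09 without tdT- F1). The neonatal Fc receptor Fcgrt, which recycles antibody, was at 1227, 1958, 1553, 2553 and 1996 CPM in the tdT- sdCAM libraries and 107, 131, 111, 138 and 101 CPM in the microglia libraries. The groups were widely apart (log2 fold change 3.98, SE 0.19, adjusted p = 7.77e-13). Fcgr2b, the inhibitory Fc receptor, was higher (log2 fold change 1.73, adjusted p = 7.37e-09) and Fcgr4, an activating one, lower (log2 fold change -1.01, adjusted p = 7.78e-05), while Fcgr1 and Fcgr3 were not called (log2 fold change -0.01, adjusted p = 0.943 and log2 fold change 0.10, adjusted p = 0.570). Lag3, an inhibitory receptor that binds MHC class II, was at 0.217, 1.75, 1.72, 0.491 and 1.24 CPM in the tdT- sdCAM libraries and 49.9, 66.1, 59.7, 54.8 and 55.9 CPM in the microglia libraries. It was below 2 CPM in every tdT- sdCAM library (log2 fold change -5.71, SE 0.50, adjusted p = 9.27e-09). Havcr2, which encodes TIM-3, and Sirpa, the receptor of the signal CD47, were lower (log2 fold change -2.77, SE 0.38, adjusted p = 6.04e-06 and log2 fold change -1.47, adjusted p = 1.22e-08), and Pilra at 0 to 38.6 CPM against 78.0 to 132 CPM (log2 fold change -2.36, SE 0.62, adjusted p = 0.00576). Cd200r1, the receptor of neuronal CD200, was higher (log2 fold change 1.98, adjusted p = 5.43e-09).

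Toll-like receptor genes split, with 3 higher, 6 lower and 9 not called of 18 tested (median -0.31, and -0.10 without pools F2 and M1). Tlr8, an endosomal RNA sensor, was at 64.2, 9.73, 66.9, 35.2 and 93.0 CPM in the tdT- sdCAM libraries and 0.301, 0, 0.684, 0 and 0 CPM in the microglia libraries. It was below 1 CPM in every microglia library (log2 fold change 8.03, SE 0.90, adjusted p = 4.30e-07, and 9.41 without the microglia library F3). Tlr3, the sensor of double-stranded RNA, was at 0.562 to 24.8 CPM against 79.1 to 110 CPM (log2 fold change -2.81, SE 0.47, adjusted p = 7.85e-05), and Tlr2, for bacterial lipoproteins, was lower (log2 fold change -1.17, adjusted p = 8.70e-05). Tlr5, the flagellin receptor, was at 49.2, 53.5, 43.4, 56.3 and 1.80 CPM in the tdT- sdCAM libraries and 10.6, 6.71, 4.45, 6.41 and 6.62 CPM in the microglia libraries. It was higher in 4 pools and lower in M2 (log2 fold change 2.55, SE 0.53, adjusted p = 7.39e-04), and it was not called with the 10 BLZ945 libraries alone and the pool as a block (2.27, adjusted p = 0.0845). Ly96, the partner of TLR4, was higher (log2 fold change 1.53, SE 0.21, adjusted p = 7.34e-06), while Tlr4 itself and Myd88, the shared adaptor, were not called (log2 fold change 0.16, adjusted p = 0.640 and log2 fold change -0.28, adjusted p = 0.133).

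Among 10 tested purine receptors and ectoenzymes, 4 were higher, 2 lower and 4 not called, and 3 were lower with the pool as a block. The purine receptors P2ry12 and P2ry13, both lower in tdT- sdCAMs, were counted in the microglia identity list instead. Adora3, an adenosine receptor, was at 3.03, 5.90, 0, 0 and 0.337 CPM in the tdT- sdCAM libraries and 94.0, 103, 91.4, 75.6 and 92.1 CPM in the microglia libraries. It was at 0 in 2 tdT- sdCAM libraries (log2 fold change -5.64, SE 0.78, adjusted p = 7.75e-06, and -6.80 without the tdT- sdCAM library F2). The ATP-gated channels P2rx4 and P2rx7 were higher in every pool, at 356 to 501 CPM against 139 to 176 CPM (log2 fold change 1.45, SE 0.11, adjusted p = 1.54e-09) and at 214 to 382 CPM against 105 to 136 CPM (log2 fold change 1.21, SE 0.13, adjusted p = 3.40e-07). Entpd1, which encodes CD39 and breaks down ATP, was lower (log2 fold change -1.06, SE 0.17, adjusted p = 4.71e-05), and P2ry6, the UDP receptor, was not called (log2 fold change -0.14, adjusted p = 0.282).

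The efferocytosis list held 4 higher, 4 lower and 1 not called of 9. Timd4, a receptor for phosphatidylserine on dying cells, was at 198, 122, 112, 276 and 141 CPM in the tdT- sdCAM libraries and 0, 0.168, 0, 0 and 0 CPM in the microglia libraries. A single microglia library held any count (a ratio of pooled counts per pooled library size of 4821, 95% counting interval 1334 to 39819). Gas6, the ligand that bridges dying cells to TAM receptors, was at 1240, 1067, 1299, 1599 and 1172 CPM in the tdT- sdCAM libraries and 193, 123, 186, 128 and 198 CPM in the microglia libraries. The groups were apart (log2 fold change 2.95, SE 0.18, adjusted p = 2.41e-11). Mertk, a TAM receptor, was lower, at 157 to 216 CPM against 417 to 508 CPM (log2 fold change -1.31, adjusted p = 9.85e-09), as was Elmo1, an adaptor for engulfment (log2 fold change -1.68, SE 0.22, adjusted p = 3.96e-06). Cd93, a surface receptor of myeloid and endothelial cells, was higher (log2 fold change 7.27, SE 0.62, adjusted p = 6.90e-09, and 7.99 without the microglia library M2). Axl, another TAM receptor, was at 180, 135, 163, 209 and 66.8 CPM in the tdT- sdCAM libraries and 93.6, 55.3, 72.8, 84.1 and 72.3 CPM in the microglia libraries. It was higher in 4 of 5 pools at an adjusted p of 0.0423, and the call was lost in 14 of 24 alternatives, among them the pool as a block and leaving out any single library apart from tdT- F2 or tdT- M2, with log2 fold changes of 0.77 to 1.18.

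Lipid genes were higher in 10 of 16 tested, lower in 5 and not called in 1 (median 0.57), and 4 were higher with pools F2 and M1 left out. Pltp, the phospholipid transfer protein, was at 436, 810, 471, 617 and 487 CPM in the tdT- sdCAM libraries and 2.51, 3.78, 1.28, 4.01 and 1.44 CPM in the microglia libraries. It was below 5 CPM in every microglia library (log2 fold change 7.76, SE 0.32, adjusted p = 9.70e-14). Lpl, lipoprotein lipase, was at 15.9, 5.47, 7.89, 30.8 and 75.9 CPM in the tdT- sdCAM libraries and 517, 221, 492, 629 and 1206 CPM in the microglia libraries. It was lower in every pool, with both populations highest in M2 (log2 fold change -4.50, SE 0.68, adjusted p = 2.56e-05, and -5.35 without the tdT- sdCAM library M2). Lrp1, Abcg1 and Trem2, a receptor for lipids and lipoproteins, were lower (log2 fold change -1.24, adjusted p = 5.53e-06, log2 fold change -1.95, adjusted p = 1.30e-07 and log2 fold change -1.33, adjusted p = 2.32e-07). Npc2, which moves cholesterol out of lysosomes, was higher (log2 fold change 0.65, adjusted p = 4.21e-05).

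Iron and heme genes were higher in 10 of 14 tested, lower in 1 and not called in 3 (median 1.07). The lower member, Slc11a1, a metal transporter of phagosomes, lost its call in 17 of 24 alternatives, among them DESeq2, leaving out tdT- F1, pool F3 or pools F2 and M1, with log2 fold changes of -0.62 to -0.32 over all of them. Hmox1, heme oxygenase, was at 918, 438, 717, 992 and 2246 CPM in the tdT- sdCAM libraries and 136, 28.7, 161, 26.8 and 205 CPM in the microglia libraries. The M2 library held the most in both populations (log2 fold change 3.25, SE 0.52, adjusted p = 4.87e-05). Blvra and Blvrb, the biliverdin reductases that act after it, were at 239 to 423 CPM against 63.6 to 94.6 CPM (log2 fold change 1.95, SE 0.16, adjusted p = 3.31e-09) and 337 to 621 CPM against 42.5 to 57.0 CPM (log2 fold change 3.16, SE 0.22, adjusted p = 2.69e-10). Cp, the ferroxidase ceruloplasmin, was at 372, 359, 352, 410 and 317 CPM in the tdT- sdCAM libraries and 6.62, 1.93, 2.99, 2.32 and 1.61 CPM in the microglia libraries. The microglia library of F1 was the highest of its group (log2 fold change 6.89, SE 0.48, adjusted p = 3.58e-10). Slc48a1, a heme transporter, and Ftl1, the ferritin light chain, were also higher (log2 fold change 1.45, adjusted p = 2.35e-05 and log2 fold change 1.01, adjusted p = 4.20e-04). The tdT- sdCAM library of F2, which held hemoglobin transcripts, was the highest of its group for Blvra, Blvrb and Ftl1 and not for Hmox1, Cp or Slc48a1.

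Of 17 oxidase and antioxidant genes tested, 10 were higher, 3 lower and 4 not called (median 0.55). Among the higher genes, Gpx1 lost its call in 13 of 24 alternatives, Sod1 in 12 and Cyba in 8. Txnrd1, a lower one, lost its call in 6 of 24. Gpx3, a secreted glutathione peroxidase, was at 833, 1371, 1323, 1312 and 966 CPM in the tdT- sdCAM libraries and 0.501, 0.755, 0.513, 1.16 and 1.19 CPM in the microglia libraries. It was below 2 CPM in every microglia library (log2 fold change 10.43, SE 0.43, adjusted p = 9.70e-14). Cybb, the catalytic subunit of the phagocyte NADPH oxidase, was at 680, 601, 382, 750 and 598 CPM in the tdT- sdCAM libraries and 67.4, 40.1, 100, 104 and 104 CPM in the microglia libraries. The lowest tdT- sdCAM library was above the highest microglia library (log2 fold change 2.86, SE 0.32, adjusted p = 4.04e-07). The cytosolic subunit Ncf1 went the opposite way (log2 fold change -0.82, adjusted p = 2.43e-04). Prdx5, Sod2 and Cat, which remove peroxides and superoxide, were higher (log2 fold change 1.37, SE 0.12, adjusted p = 1.11e-08, log2 fold change 1.08, SE 0.22, adjusted p = 7.33e-04 and log2 fold change 0.99, adjusted p = 2.12e-05).

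Matrix and proteolysis genes were called higher in 9 and lower in 7 of 21 tested, with 5 not called (median 0.70). Mmp9, a gelatinase, was at 75.3, 195, 69.0, 102 and 187 CPM in the tdT- sdCAM libraries and 0, 0, 0.428, 0 and 0 CPM in the microglia libraries. A single microglia library held any of it (log2 fold change 10.30, SE 0.83, adjusted p = 3.02e-09, and with every microglia library but F3 at 0). Mmp12, the macrophage elastase, was at 7.80, 0, 0, 8.16 and 14.5 CPM in the tdT- sdCAM libraries and 213, 164, 279, 218 and 577 CPM in the microglia libraries. It was lower in tdT- sdCAMs and at 0 in F2 and F3 (log2 fold change -5.58, SE 1.07, adjusted p = 3.73e-04, and -6.19 without the tdT- sdCAM library M2), and it was not called with limma voom (-8.34, adjusted p = 0.0562). Ecm1 and Tgfbi, secreted matrix proteins, were at 88.4 to 221 CPM against 2.68 to 8.81 CPM (log2 fold change 4.78, SE 0.41, adjusted p = 7.95e-09) and 797 to 1100 CPM against 89.5 to 198 CPM (log2 fold change 2.52, SE 0.24, adjusted p = 4.06e-08). Among cathepsins, Ctsb and Ctsc were higher (log2 fold change 0.83, adjusted p = 5.41e-04 and log2 fold change 1.42, adjusted p = 8.02e-09) and Ctsd and Ctsl lower (log2 fold change -1.45, adjusted p = 1.12e-07 and log2 fold change -0.78, adjusted p = 0.00428). Spp1, which encodes osteopontin, was at 793, 326, 1054, 3670 and 4997 CPM in the tdT- sdCAM libraries and 5331, 747, 6860, 4144 and 11697 CPM in the microglia libraries. It was lower in each of the 5 pools, but the spread among pools was wide and it was not called (log2 fold change -1.41, adjusted p = 0.247), whereas with the pool as a block it was (-1.61, adjusted p = 0.0255).

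Growth factors were higher in 4, lower in 2 and not called in 4 of 10 tested. Igf1 was at 178, 174, 177, 243 and 246 CPM in the tdT- sdCAM libraries and 7.72, 6.80, 7.87, 4.45 and 6.11 CPM in the microglia libraries. It was below 8 CPM in every microglia library (log2 fold change 4.95, SE 0.43, adjusted p = 8.80e-09). Pdgfc was higher, at 6.23 to 47.7 CPM against 0 to 0.671 CPM (log2 fold change 6.53, SE 0.88, adjusted p = 5.93e-06, and 7.33 without the microglia library F2), and Pdgfb lower, at 8.31 to 23.7 CPM against 93.8 to 133 CPM (log2 fold change -2.82, SE 0.29, adjusted p = 1.14e-07). Tgfa, an EGF receptor ligand, was at 0.112 to 12.3 CPM against 55.4 to 82.5 CPM (log2 fold change -3.75, SE 0.51, adjusted p = 5.78e-06), and Grn, which encodes progranulin, was higher (log2 fold change 0.60, adjusted p = 2.51e-04).

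Integrin and adhesion genes were higher in 4, lower in 7 and not called in 8 of 19 tested (median -0.56), Itgam being a sort gene. The median was -0.29 without tdT- F1, -0.34 without pool F3 and 0.19 in CTL mice. Vcam1, the ligand of the integrin VLA-4, was at 1358, 1555, 1755, 1232 and 1014 CPM in the tdT- sdCAM libraries and 71.8, 47.8, 67.8, 51.8 and 41.8 CPM in the microglia libraries. It was higher in every pool (log2 fold change 4.62, SE 0.39, adjusted p = 6.07e-09). Itga4, the VLA-4 alpha chain, was at 48.6, 31.7, 36.6, 62.1 and 7.195 CPM in the tdT- sdCAM libraries and 1.80, 0.0839, 0.513, 0.534 and 0.0849 CPM in the microglia libraries. It was likewise higher, with M2 the lowest of the tdT- sdCAM libraries (log2 fold change 5.96, SE 0.84, adjusted p = 9.70e-06, and 6.89 without the microglia library F1). F11r, a junctional adhesion molecule, was at 15.4 to 102 CPM against 982 to 1238 CPM (log2 fold change -4.31, SE 0.37, adjusted p = 9.14e-09), and Icam1, a ligand of leukocyte integrins, was lower (log2 fold change -2.58, adjusted p = 4.66e-06). Itgb3, the integrin beta 3 chain, was at 0.975, 0.437, 0.0907, 13.5 and 0 CPM in the tdT- sdCAM libraries and 27.4, 36.4, 53.5, 25.6 and 33.6 CPM in the microglia libraries. A single tdT- sdCAM library, M1, held over 1 CPM (log2 fold change -3.55, SE 0.88, adjusted p = 0.00368, and -6.54 without the tdT- sdCAM library M1). Itgb5 was lower (log2 fold change -2.22, adjusted p = 5.24e-10) and Itgb1 was not called (log2 fold change 0.13, adjusted p = 0.570).

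Eicosanoid and phospholipase genes were higher in 7, lower in 2 and not called in 7 of 16 tested, and 1 rather than 2 was lower without pool F3. Pla2g2d, a secreted phospholipase, was at 208, 298, 162, 224 and 151 CPM in the tdT- sdCAM libraries and 0, 0, 0, 0 and 0 CPM in the microglia libraries. It was at least 3917-fold higher (adjusted p = 1.46e-10). Pla2g7, which degrades platelet-activating factor, was at 1180, 1661, 1494, 1682 and 1204 CPM in the tdT- sdCAM libraries and 10.1, 6.71, 13.8, 6.06 and 12.6 CPM in the microglia libraries. Each population lay within a narrow range (log2 fold change 7.19, SE 0.25, adjusted p = 2.18e-14). Ptgs1, cyclooxygenase 1, was lower, at 266 to 428 CPM against 830 to 1104 CPM (log2 fold change -1.42, SE 0.14, adjusted p = 7.16e-08), while Alox5, the first enzyme of leukotriene synthesis, was higher (log2 fold change 1.33, adjusted p = 5.25e-06), as was Ptafr, the receptor for platelet-activating factor (log2 fold change 0.80, adjusted p = 7.25e-04).

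Immediate early genes, the first to respond to a stimulus, were called higher in 4, lower in 1 and not called in 8 of 13, and 0 were lower without tdT- F1 or without pools F2 and M1. Fos was at 7251, 3688, 9286, 8435 and 6953 CPM in the tdT- sdCAM libraries and 3450, 1863, 3390, 2967 and 3887 CPM in the microglia libraries. It was higher in each pool, with F2 lowest in both populations (log2 fold change 1.19, SE 0.28, adjusted p = 0.00266). Fosb and Dusp1 were higher (log2 fold change 2.23, SE 0.42, adjusted p = 3.16e-04 and log2 fold change 1.30, SE 0.30, adjusted p = 0.00201), while Jun and Atf3 were not called (log2 fold change -0.35, adjusted p = 0.252 and log2 fold change -0.17, adjusted p = 0.789). Of 9 tested cell cycle genes, 1 was higher, 2 lower and 6 not called, and Mki67, a marker of dividing cells, was at most 0.272 CPM in tdT- sdCAMs and 1.20 CPM in microglia. With the pool as a block, none of the cell cycle genes was higher and 4 were lower, and without pool F3 none was higher and 1 was lower. Mcm5, a replication licensing factor, was lower, at 0.112 to 14.2 CPM against 16.4 to 39.5 CPM (log2 fold change -2.58, SE 0.59, adjusted p = 0.00182, and -3.41 without the tdT- sdCAM library F2).

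Interferon-stimulated genes were higher in 4, lower in 1 and not called in 8 of 13 (median 0.38), and 0 were lower without tdT- F1 or without pools F2 and M1. Ifitm3, which blocks viral entry, was at 990, 1466, 999, 830 and 1057 CPM in the tdT- sdCAM libraries and 127, 94.0, 145, 175 and 96.5 CPM in the microglia libraries. It was the clearest member (log2 fold change 3.07, SE 0.26, adjusted p = 5.33e-09). Bst2, which encodes tetherin, was higher (log2 fold change 1.47, SE 0.17, adjusted p = 4.52e-07), as was Ifi204, a DNA sensor (log2 fold change 1.03, adjusted p = 0.00138). Isg15, Ifit1 and Ifit3 were not called (log2 fold change -0.09, adjusted p = 0.819, log2 fold change -0.09, adjusted p = 0.889 and log2 fold change 0.10, adjusted p = 0.839).

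Outside the lists, the 6 largest rises and 6 largest falls among abundant genes were taken from those whose groups did not overlap. Nxpe5 was at 105, 96.3, 71.8, 124 and 98.7 CPM in the tdT- sdCAM libraries and 0, 0, 0, 0 and 0 CPM in the microglia libraries, at least 1861-fold higher in tdT- sdCAMs (adjusted p = 2.64e-08). Fcna, the lectin ficolin A, was at 429, 707, 498, 1038 and 1065 CPM in the tdT- sdCAM libraries and 0.401, 0.0839, 0, 0 and 0.339 CPM in the microglia libraries. Rgs18, a regulator of G-protein signals, Fpr1, the formyl peptide receptor, and Bmp2, a bone morphogenetic protein, were at most 0.601 CPM in microglia (log2 fold change 10.65, SE 0.43, adjusted p = 9.70e-14, and 12.44 without the microglia library F2; log2 fold change 9.78, SE 0.70, adjusted p = 4.86e-10, and 11.05 without the microglia library F3; log2 fold change 9.29, SE 0.78, adjusted p = 5.77e-09, and with every microglia library but F1 at 0), and Chp2 had a single count there (a ratio of pooled counts per pooled library size of 2945, 95% counting interval 528 to 116351). Among genes that were lower, Cd34, the sialomucin of stem and endothelial cells, was at 0, 8.53, 10.7, 0 and 12.5 CPM in the tdT- sdCAM libraries and 432, 469, 423, 409 and 377 CPM in the microglia libraries. Every microglia library stood far above the tdT- sdCAM libraries (log2 fold change -6.05, SE 0.84, adjusted p = 8.09e-06). Adgrg1, an adhesion G-protein receptor, was at 0.787 to 10.4 CPM against 288 to 463 CPM (log2 fold change -6.08, SE 0.46, adjusted p = 1.18e-09), and Plxdc2 at 0 to 18.7 CPM against 490 to 575 CPM (log2 fold change -5.99, SE 0.72, adjusted p = 1.29e-06). Upk1b, Slco4a1 and Adamts1, a matrix protease, were at or near 0 in tdT- sdCAMs (log2 fold change -8.32, SE 1.05, adjusted p = 2.36e-06, and with every tdT- sdCAM library but M2 at 0; log2 fold change -7.14, SE 0.98, adjusted p = 7.49e-06, and -11.08 without the tdT- sdCAM library F1; log2 fold change -6.70, SE 0.85, adjusted p = 2.72e-06, and -8.66 without the tdT- sdCAM library M2).

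The population difference in BLZ945 mice was set beside that in the 5 CTL mice, where 3254 genes (25.6%) were called, 15.3% higher and 10.3% lower. The same direction was called in both treatments for 2507 genes and opposite directions for 1 gene, 1605 were called in BLZ945 mice alone and 746 in CTL mice alone. A test of the difference between the treatments called 5 genes (0.0394%), and 1104 (8.69%) at an unadjusted p under 0.05. A call in one treatment alone does not show that the treatments differ. The same test called 94 genes with DESeq2, and 36 with edgeR when tdT- F1 of the BLZ945 mice was left out.

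The identity lists were alike in count, with all 17 border macrophage genes higher in CTL mice and 14 of 15 microglia genes lower, and the median log2 fold change was 8.38 and -3.57 there. For 2 class II chains the fitted differences were as follows. H2-Aa differed by 7.12 on the log2 scale in BLZ945 and by 4.83, SE 0.45 in CTL mice, but the difference between the treatments was not called over all genes (2.28, SE 0.56, adjusted p = 0.159), while with the pool as a block it was (2.29, adjusted p = 0.0265). For H2-Eb1 the values were 6.82 and 4.70, SE 0.35 (2.12, SE 0.45, adjusted p = 0.103). Axl and Cd36 went the other way, from 3.47, SE 0.40 and 4.92, SE 0.49 in CTL mice to 1.00 and 1.94, and were also not called (-2.47, SE 0.53, adjusted p = 0.103 and -2.97, SE 0.61, adjusted p = 0.0988). Interferon-stimulated genes had a median of 0.38 in BLZ945 mice and 1.43 in CTL mice, where 8 of 13 were higher. In 8 of 13 the unadjusted p of the difference was under 0.05, in none the adjusted p, and the comparisons use separate mice. The 5 genes called were Adam33, Gimap9, Zfp493, Ano7 and Gm9958, and with the pool as a block none of them was called and H2-Aa was the 1 gene called. Adam33, a membrane metalloprotease, was at 33.6, 23.2, 45.3, 33.6 and 19.4 CPM in the tdT- sdCAM libraries and 0, 0.671, 0.257, 0.891 and 0.424 CPM in the microglia libraries in BLZ945 mice, and its log2 fold change was 6.06 there and 11.28, SE 0.69 in CTL mice (-5.23, SE 0.94, adjusted p = 0.0456). Adam33 was near 0 in CTL microglia, so the size of its CTL value and of the difference is uncertain. Gimap9, a GTPase of immune cells, was at 0 to 0.225 CPM against 5.73 to 13.0 CPM, with log2 fold changes of -7.30 and -1.85, SE 0.46 (-5.45, SE 0.83, adjusted p = 0.0192). Zfp493, a zinc-finger gene, was at 0 to 0.112 CPM against 3.69 to 8.47 CPM (-7.53, SE 1.25, adjusted p = 0.0322). Ano7 and Gm9958 were at 0 in all 5 tdT- sdCAM libraries of BLZ945 mice and at up to 10.8 and 2.51 CPM in microglia.

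**Figure D5:**
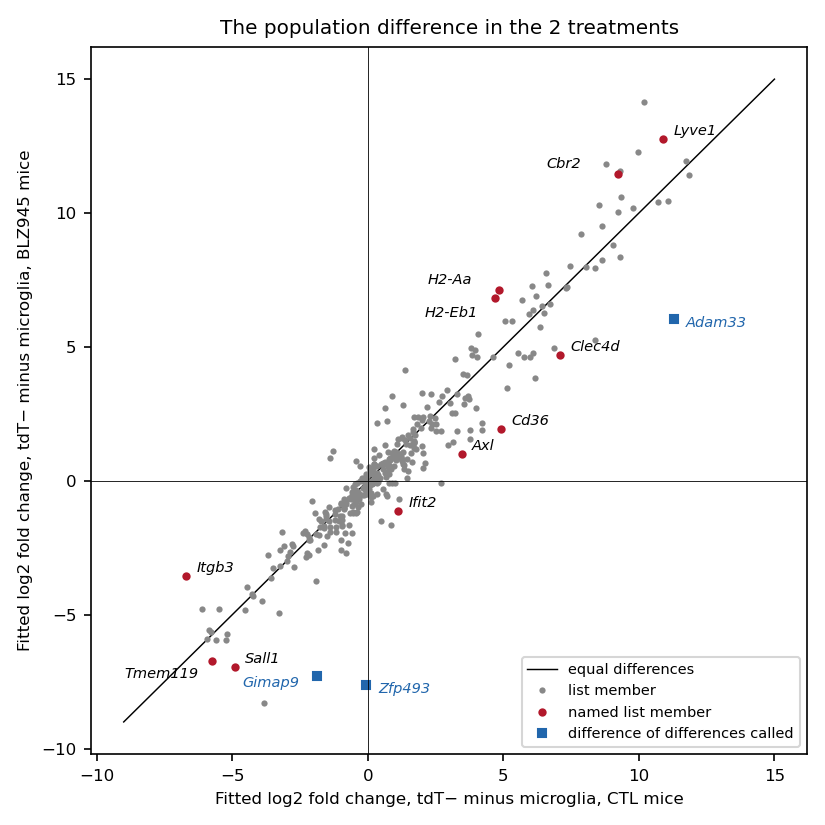
Fitted log2 fold changes of tdT- sdCAMs over microglia in BLZ945 mice (vertical) against CTL mice (horizontal), for 359 list members (grey, named ones in red) and 3 genes called for the difference between treatments (blue), with the line of equal differences. Most members lie near the line, and 7 members with 0 counts in a group are left out.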

How the data were processed

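RNA was measured in FACS-sorted cells. By the labels, about 500 pg of RNA per library was amplified by PCR with the SMART-Seq mRNA LP kit. The authors demultiplexed with bcl2fastq 2.20, aligned with STAR 2.7.11a and counted reads per gene with featureCounts 2.0.6, as the submitters' processing notes name these tools. They deposited raw counts of 33280 genes, without normalization. The sources used here do not settle the genome build (mm10 or GRCm39), and strand and multimapping settings were not given in the sources used here.

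The 10 BLZ945 and 10 CTL libraries of tdT- sdCAMs and microglia entered 1 edgeR 4.0.16 quasi-likelihood model (TMM scaling, filterByExpr, 4 groups), with p-values adjusted by Benjamini-Hochberg over 12697 genes in R 4.3.3. The code was tested on simulated data. The common biological coefficient of variation was 0.504. tdT- and microglia libraries with the same label come from the same animal or pool, and their deviations from the group means correlated at 0.0495 to 0.305 over 7007 genes. For M1 the correlation with its own pool, 0.0495, was below that with another pool, 0.107. The study's methods use no such block, so it was an alternative. No 2 libraries of a group agreed within sampling noise. The BLZ945 replicates are pools of 2 animals by the study's methods, and both populations of a pool share their source. Counting intervals (95%) and floors of 3 counts cover counting error only, since PCR reads are not independent molecules.

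The comparison, the 25 gene lists and 15 marker lists were chosen with earlier results of these data known. Any list member could be named, up to 4 per list in full (largest absolute fold changes among called members with an average log2 CPM of at least 4), and outside the lists the 6 largest rises and 6 largest falls among called, non-overlapping genes with an average of at least 5. Other members given in full, such as P2ry12, Csf1r or Cd36, were chosen after their values were seen. Alternatives were DESeq2 1.42.0, limma 3.58.1 voom, other scaling and filters, the block, fewer libraries and each library or pool left out. Leaving out pools F2 and M1 together, and the gene lists without tdT- F1 or pool F3, were added after seeing the data. A few list members enter the counts and medians but are not reported here by name.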

Additional observations from a re-analysis of the deposited data

Results flagged for a closer look

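Among the genes chosen by the naming rule, 191 groups of 5 libraries with at least 50 summed counts were examined for a lone library far from the others of its group, and 12 (6.28%) held one. Independent normal values would give about 1 in 20 groups. CPM of genes picked for large differences, in libraries that share pools, are not such values, so the share cannot be read against that rate. In tdT- sdCAMs, Sall1 was at 5.62 CPM in F3 against 0.433 to 0.984 CPM in the others, Colec12 at 368.7 CPM in M2 against 160 to 219 CPM, and Maf at 1703 CPM in F2 against 894 to 1053 CPM. Eng was at 0 in M2 against 5.25 to 7.26 CPM, Tnf at 77.6 CPM in F2 against 170 to 204 CPM, and Itgb3 at 13.5 CPM in M1 against 0 to 0.975 CPM. Tlr5 was at 1.80 CPM in M2 against 43.4 to 56.3 CPM, and Adamts1 at 4.61 CPM in M2 against 0 to 0.816 CPM. In microglia, Cp was at 6.62 CPM in F1 against 1.61 to 2.995 CPM, Mmp12 at 576.9 CPM in M2 against 164 to 279 CPM, Tgfbi at 89.5 CPM in F2 against 189 to 198 CPM, and Junb at 2631 CPM in F1 against 3082 to 3149 CPM. Of the 12, 4 were in tdT- M2. For Tlr5 that library lay below the microglia libraries, which were at 4.45 to 10.6 CPM, and in every other case the library stayed on its own population's side.

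The difference between the populations itself was called different between BLZ945 and CTL mice for 5 genes, none of which was called with the pool as a block, although both populations of a label come from the same animals. On the log2 scale, the difference in BLZ945 mice minus that in CTL mice was -5.23 for Adam33, -5.45 for Gimap9 and -7.53 for Zfp493. It was -7.48 for Ano7 and -8.12 for Gm9958, but these were at 0 in all tdT- sdCAM libraries of the BLZ945 mice, so the fitted values depend on the prior count. Gimap9 and Zfp493 had 2 counts and 1 count in all 5 of those libraries together. In tdT- sdCAMs, Adam33 averaged 31.0 ± 10.1 CPM after BLZ945 and 70.4 ± 23.7 CPM in CTL mice, and in microglia 0.449 ± 0.348 CPM and 0.0171 ± 0.0383 CPM (mean ± SD, n = 5 each). The level in CTL microglia is near 0, so the size of the fitted Adam33 difference is uncertain.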

How the results depend on the processing

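The called list members and the genes of the naming rule gave 6449 values in up to 24 alternatives each, of which 6089 kept direction and call, 360 lost the call and 0 changed sign, and 215 genes kept the call in all of theirs. The population difference called 4113 genes. It called 2738 with the 10 BLZ945 libraries alone and 2560 with these and the pool as a replicate block. The block in the full model called 4087, with 2033 higher and 2054 lower, against 2324 and 1789 without it. Of the list members named in the report, C1qa and Spp1 gained a call with it and Axl and Ccr2 lost theirs. At that setting the median of all genes was -0.177. DESeq2 called 4640, RLE scaling 4145, voom 4131, no filter 3801, and at least 10 counts in every library 2893. Leaving out single libraries or pools gave 3480 to 4437 genes, and leaving out pools F2 and M1 gave 3118. The cause of these changes was not tested, apart from fewer libraries or genes where these were left out.

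The treatment test called 5 genes, 94 with DESeq2, 1 with the pool as a replicate block, H2-Aa, which is none of the 5 and is higher where they are lower, 9 without a filter, 0 in edgeR with at least 10 counts in every library (822 of 8062 genes at an unadjusted p under 0.05), and 1 to 36 with single libraries left out (36 without tdT- F1). With pools F2 and M1 left out, the median of the MHC class II list turned from -0.12 to 0.01384 and that of the Fc gamma list from 0.04 to -0.003146. Medians also moved by over 1.5 times for chemokine receptors (0.19, and 1.72 without pool F3), cell cycle genes (-0.42, and -1.12 with the block), growth factors (0.73, and 0.36 with the block), TGF-beta genes (-0.65, and -1.19 with the 10 BLZ945 libraries alone), efferocytosis genes (1.00, and 0.22 with the same), and, with pools F2 and M1 left out, interferon-stimulated genes (0.38, and 0.22) and immediate early genes (-0.07, and -0.18). Lower members among immediate early genes went from 1 to 2 with the block and to 0 with the 10 BLZ945 libraries alone, and among interferon-stimulated genes from 1 to 0 with either. With the 10 BLZ945 libraries alone, 1 rather than 2 of the TGF-beta genes and of the colony-stimulating factor list was higher, 1 rather than 2 eicosanoid and cell cycle genes was lower, 0 rather than 1 cell cycle gene was higher, and 0 rather than 1 iron gene was lower. DESeq2 also gave 0 lower iron genes and 1 lower eicosanoid gene. No list's median changed when genes with 0 counts in microglia were set to their bound. A count of 0 in 1 library still allows a level of up to 0.252 to 0.337 CPM, and 2829 tested genes had a 0 in at least 1 tdT- sdCAM library against 1282 in microglia.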
